A study of Mus musculus with 6 samples.

Results

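The 37 genes described here are the lipid and hormone genes of the mature white fat cell, followed in chromatin taken from preadipocytes at day 0, before any differentiation medium was given. A gene was assigned every open site whose summit lay in its body or within 10 kb of it, which gave 342 sites of 179251 in all. Of the 21701 protein-coding genes compared with them, these 37 comprised 5 genes of hormone signalling, 5 of the lipid droplet, 7 of uptake and transport, 4 of lipolysis, 7 of fatty acid synthesis, 7 of triglyceride synthesis and 2 transcription factors. The question was which of the genes were already open before differentiation, at the promoter or at distal sites, and whether cells without HMGN1 and HMGN2 differed from wild type there.

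ATAC-seq, in which the transposase Tn5 cuts accessible DNA, was carried out on 3 WT and 3 DKO cultures, all C57BL/6 by their labels. DKO cells carry Hmgn1-/- and Hmgn2-/-, the loss from the germline of a pair of nucleosome-binding proteins. Both groups were primary preadipocytes from inguinal white fat of mice 8 to 12 weeks of age, grown to confluence on collagen and taken on day 0. The labels do not say whether the cultures of a genotype came from separate mice, so the p-values measure the spread between these cultures, which may be technical.

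The values are those of the authors' peak lists. A list gives 1 summit per line, with the −log10 p of the peak caller and the fold enrichment, which is the number of cut sites stacked there divided by the background estimated around it in that library. Each list stops near 300000 summits, and 299433 to 299620 were held per library. The weakest listed −log10 p was 3.54 at the lowest (DKO replicate 3) and 5.63 at the highest (WT replicate 3). The summits of a list lay in 162877 to 185601 called intervals, several in some of them. A site without a summit can lie under the limit of its list or inside an interval whose summits fall elsewhere. It is not known to be closed. Summits of the 6 libraries were joined into windows of 501 bp, and a window was tested where at least 2 libraries reached a q under 0.01. At the Hmgn2 promoter the 3 WT libraries read 7.89, 7.53 and 9.45 and no DKO library listed a summit. The Hmgn1 promoter was listed in all 6 libraries, which does not check a deletion elsewhere in that gene. Of the preadipocyte and fibroblast markers, 9 of 12 had a promoter window in all 6 libraries, among them Pdgfra, Pdgfrb, Dpp4 and Col1a1, while Ly6a had none. The same count was 3 of 6 for endothelial, 2 of 7 for immune and 0 of 4 for skeletal muscle markers. Ptprc and Emcn had no promoter window, whereas Pecam1 and Tek did in all 6 libraries. The values of some of these markers did not overlap between genotypes before normalization, and none was tested. Of all promoters listed in 6 libraries, 10.4% lay lower in every DKO library as listed and 3.38% higher. As listed, Pecam1 read 12.2 to 17.2 in WT and 10.3 to 11.8 in DKO, Tek 15.4 to 18.2 and 13.5 to 15.3, and Pdgfrb 9.55 to 10.9 and 7.24 to 9.22. Cd68 was higher in DKO, at 4.79 to 5.73 in WT and 5.78 to 6.26 in DKO, while Cdh5 and Itgam were listed in all 3 DKO libraries and no WT library and Tie1 and Adgre1 in 2 DKO libraries and no WT library. The summed promoter fold enrichment, an unlisted gene counting as 0, ran from 33.3 to 42.1 in WT and 38.3 to 40.3 in DKO over the endothelial list, from 9.16 to 9.84 and 12.3 to 19.8 over the immune list, and from 55.97 to 64.05 and 54.1 to 57.8 over the preadipocyte and fibroblast list. The WT immune sums hold only Cd68 and Csf1r, while the DKO sums also hold Itgam and Adgre1. Absence of these from the WT lists is no measure of closure, so the immune sums do not compare the genotypes. Csf1r read 3.78 to 4.46 in WT and 3.20 to 4.20 in DKO, which overlap. The part of other cell types in the values below was not tested. The adipocyte regulators Cebpa and Pparg had a promoter window in 6 and 5 libraries, and that of Cebpa read 10.5 to 13.4 in WT and 13.6 to 14.3 in DKO.

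White adipocytes store fatty acids as triglyceride. Fatty acids enter from the blood or are built from glucose carbon, are esterified onto glycerol 3-phosphate, are held in a coated droplet and are released again by a series of lipases. Most of these genes are switched on late in adipogenesis by PPARγ and C/EBPα, while SREBP1 and ChREBP drive the synthetic enzymes. A promoter can be accessible long before its gene is transcribed, and many promoters rich in CpG are open in nearly every cell type, so an open promoter at day 0 is no measure of expression.

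The sequences below carry the main contrasts. They are written 5′ to 3′ on the strand of the gene in mm10, with matches to 6 motifs in capitals, namely AP-1 (TGACTCA), C/EBP (TTGCGCAA, TTGCACAA or TTACGCAA), the CCAAT box (CCAAT), the E box (CACGTG), the GC box (GGGCGG) and the direct repeat of AGGTCA spaced by 1 base that PPAR binds, with at most 2 mismatches. Both strands were searched, and matches can overlap. A match describes the letters only. The first is the 250 bases before the Adipoq start at chr16:23146286-23146535, where no window was found. The next is the 250 bases before the Fasn start at chr11:120824548-120824797, a promoter listed in all 6 libraries. Both come from the RefSeq promoter table (GRCm38), which held 28 of the 37 genes.
Adipoq promoter: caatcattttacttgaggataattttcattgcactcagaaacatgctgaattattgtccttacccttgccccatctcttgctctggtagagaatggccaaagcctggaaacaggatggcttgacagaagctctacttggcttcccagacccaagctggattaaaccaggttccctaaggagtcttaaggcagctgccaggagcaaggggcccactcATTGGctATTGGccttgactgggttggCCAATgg
Fasn promoter: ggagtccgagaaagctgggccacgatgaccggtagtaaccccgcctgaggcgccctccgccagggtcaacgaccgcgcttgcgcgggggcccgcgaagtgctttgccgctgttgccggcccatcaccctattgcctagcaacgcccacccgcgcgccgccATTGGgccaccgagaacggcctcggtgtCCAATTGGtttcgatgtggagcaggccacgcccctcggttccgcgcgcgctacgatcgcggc

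Adipoq and Fasn each held 3 CCAAT matches, of which a pair overlap in Fasn, and differed in CpG, with 0 against 33 in 250 bases. The next 2 are strong distal sites, picked after their values and letters were seen. They are the middle of the window 9.78 kb upstream of Adipoq (chr16:23136605-23136904) and of the intronic window 21.7 kb into Mgll (chr6:88746348-88746647). Both hold an AP-1 match, but distal windows of Acaca, Adipoq and Elovl6 with a mean between theirs, not shown here, hold none.
Adipoq upstream window: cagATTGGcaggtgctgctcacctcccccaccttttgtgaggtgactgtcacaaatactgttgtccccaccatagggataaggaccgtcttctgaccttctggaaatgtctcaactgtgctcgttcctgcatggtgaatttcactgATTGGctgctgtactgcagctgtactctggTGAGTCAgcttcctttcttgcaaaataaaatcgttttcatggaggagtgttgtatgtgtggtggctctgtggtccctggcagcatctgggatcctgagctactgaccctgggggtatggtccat
Mgll intronic window: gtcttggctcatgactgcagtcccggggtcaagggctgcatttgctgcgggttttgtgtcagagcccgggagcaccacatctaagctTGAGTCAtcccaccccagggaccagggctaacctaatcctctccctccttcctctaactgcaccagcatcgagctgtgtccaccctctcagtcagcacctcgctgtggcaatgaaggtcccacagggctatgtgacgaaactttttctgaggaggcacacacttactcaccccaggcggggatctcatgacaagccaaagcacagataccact

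The remaining sequences are windows in which the listed values did not overlap between genotypes or were present in 1 genotype alone. The first lies at the promoter of Acaca inside the gene (chr11:84194802-84195101). A pair of Cd36 intronic windows follows, listed in DKO alone (chr5:17857354-17857653) and in WT alone (chr5:17816150-17816449). The last 3, listed in all 6 libraries, lie downstream of Scd1 (chr19:44388473-44388772), downstream of Fabp5 (chr3:10022585-10022884) and in an intron of Elovl6 (chr3:129611584-129611883).
Acaca promoter window: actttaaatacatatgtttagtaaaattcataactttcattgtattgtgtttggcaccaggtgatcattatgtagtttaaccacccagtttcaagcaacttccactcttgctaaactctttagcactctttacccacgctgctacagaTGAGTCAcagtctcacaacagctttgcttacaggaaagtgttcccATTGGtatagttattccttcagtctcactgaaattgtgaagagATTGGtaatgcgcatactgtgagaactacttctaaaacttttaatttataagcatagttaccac
Cd36 window of the DKO lists: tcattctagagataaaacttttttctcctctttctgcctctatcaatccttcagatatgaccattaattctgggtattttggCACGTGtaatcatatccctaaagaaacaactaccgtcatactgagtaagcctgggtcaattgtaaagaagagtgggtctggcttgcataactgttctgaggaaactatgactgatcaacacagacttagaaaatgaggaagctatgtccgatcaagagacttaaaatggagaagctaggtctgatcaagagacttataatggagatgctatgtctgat
Cd36 window of the WT lists: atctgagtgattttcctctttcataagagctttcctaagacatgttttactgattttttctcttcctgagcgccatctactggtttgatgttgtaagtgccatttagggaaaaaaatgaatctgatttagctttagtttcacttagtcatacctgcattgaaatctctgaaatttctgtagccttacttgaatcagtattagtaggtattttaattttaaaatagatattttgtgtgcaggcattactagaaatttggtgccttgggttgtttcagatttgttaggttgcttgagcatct
Scd1 downstream window: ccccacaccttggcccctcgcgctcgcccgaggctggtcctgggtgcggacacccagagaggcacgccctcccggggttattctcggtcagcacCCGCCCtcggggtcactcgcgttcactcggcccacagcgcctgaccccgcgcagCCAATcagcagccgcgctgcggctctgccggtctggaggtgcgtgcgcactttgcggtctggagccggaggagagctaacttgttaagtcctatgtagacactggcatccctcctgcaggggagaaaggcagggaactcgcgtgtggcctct
Fabp5 downstream window: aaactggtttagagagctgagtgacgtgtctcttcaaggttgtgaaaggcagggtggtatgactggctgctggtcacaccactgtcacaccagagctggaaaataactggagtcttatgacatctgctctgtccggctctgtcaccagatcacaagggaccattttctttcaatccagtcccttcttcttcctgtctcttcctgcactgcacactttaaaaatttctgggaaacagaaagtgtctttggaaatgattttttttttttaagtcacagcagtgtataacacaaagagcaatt
Elovl6 intronic window: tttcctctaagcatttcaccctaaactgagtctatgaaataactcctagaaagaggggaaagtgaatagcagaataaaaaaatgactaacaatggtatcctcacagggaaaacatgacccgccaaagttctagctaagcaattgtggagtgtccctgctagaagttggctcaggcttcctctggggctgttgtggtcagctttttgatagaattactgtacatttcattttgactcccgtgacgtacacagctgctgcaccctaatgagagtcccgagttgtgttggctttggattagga

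Most of the adipocyte genes had an open promoter before differentiation. A window within 1 kb of a transcription start site (TSS) of the basic GENCODE set was listed in all 6 libraries for 28 of the 37 genes, or 75.7%, against 59.8% of all protein-coding genes. Mgll had such a window in 5 libraries and Cd36 in 2. No promoter window was found for 7 genes, Adipoq, Lep, Cfd, Plin1, Cidec, Pck1 and Gpd1, or 18.9% against 33.0% of all protein-coding genes. The CpG observed over expected of these 7 in the 2 kb around the TSS, the highest over the starts of a gene, ran from 0.171 for Adipoq to 0.317 for Gpd1 with a median of 0.250. The median was 0.514 for the 28 genes listed in all 6 libraries and 0.626 for all listed protein-coding promoters, beside 0.190 for all those without a window.

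**Figure D1:**
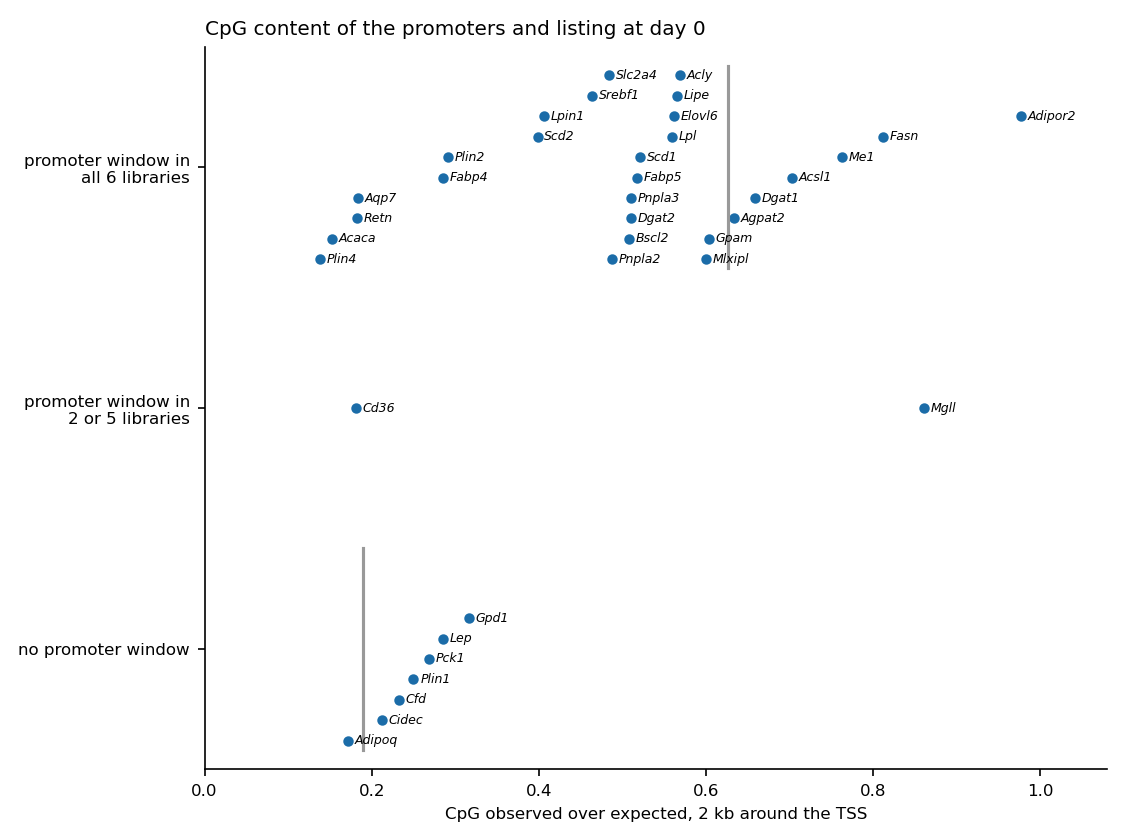
CpG observed over expected in the 2 kb around the TSS (horizontal axis) of the 37 genes, by the number of libraries that listed a promoter window (rows, points spread vertically only so that names can be read). The grey bars are the medians of all protein-coding genes, 0.626 with a window in all 6 libraries and 0.190 with none, and Plin4, Acaca, Retn, Aqp7, Fabp4 and Plin2 were listed in all 6 with values under 0.3. The Acaca value is from starts inside the gene.

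CpG content did not sort the genes without exception. Plin4 (0.139), Acaca (0.153), Retn (0.183), Aqp7 (0.184), Fabp4 (0.286) and Plin2 (0.291) were CpG-poor and listed in all 6 libraries. The Acaca value was taken at basic-set starts inside the gene and not at its annotated 5′ end. Mgll, at 0.861, was CpG-rich and was not listed in WT replicate 1. The strength of the 28 promoters was ordinary. Their mean fold enrichment over the 6 libraries ran from 3.44 for Gpam to 20.98 for Lipe with a median of 11.7, against a median of 12.6 over the promoters of the 12975 protein-coding genes listed in all 6. Lipe stood above 90.4% of those promoters, Pnpla3 above 86.2%, and Elovl6 and Gpam above 0.478% and 0.385%.

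**Figure D2:**
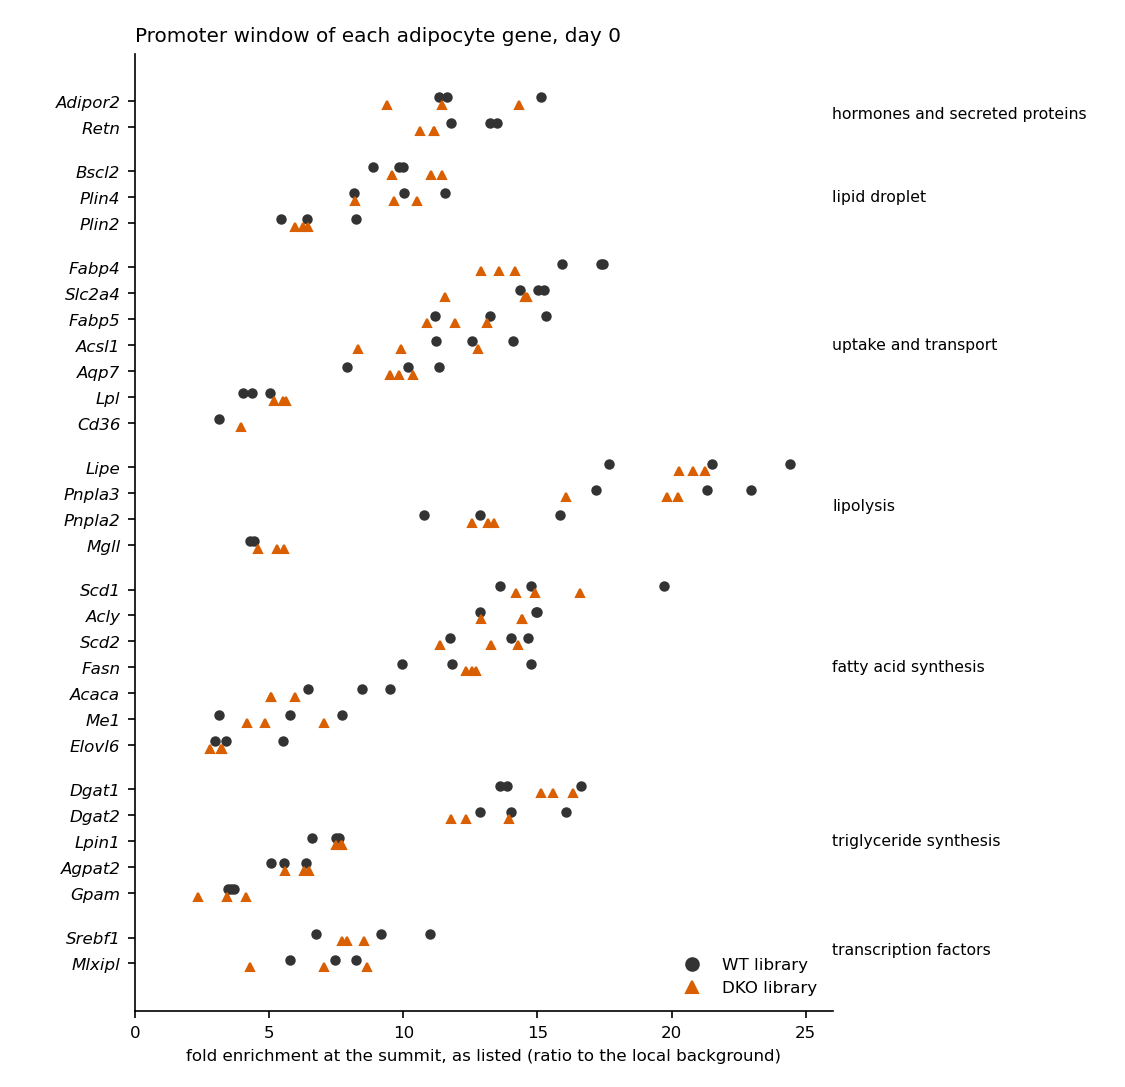
Fold enrichment of the promoter window of each of the 30 genes that had one (horizontal axis, as listed), grouped by role, with a circle for each WT library and a triangle for each DKO library. The groups overlap for 24 of the 28 genes listed in all 6 libraries. Fabp4, Retn and Acaca lie lower in all 3 DKO libraries and Lpl higher.

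In the account of each role that follows, fold enrichment is given as listed, in the order of replicates 1, 2 and 3. The hormone group was the least open at its promoters. Adipoq (adiponectin), Lep (leptin) and Cfd (the complement factor adipsin) had no promoter window. Retn, which encodes the hormone resistin, was listed 772 bp upstream of its TSS (chr8:3654748-3655248) at 13.2, 11.8 and 13.5 in WT and 11.1, 11.2 and 10.6 in DKO. Every DKO value was below every WT value. After quantile normalization the groups overlapped, with a log2 change of -0.05 ± 0.11 (SE). The promoter of Adipor2, an adiponectin receptor, lay 120 bp from a TSS within the gene (chr6:119388556-119389056) and read 11.3, 11.6 and 15.1 in WT and 11.5, 14.3 and 9.39 in DKO, so the groups overlapped. Of the 26 distal windows of these 5 genes, 16 were listed in all 6 libraries.

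Adipoq had no listed promoter window and strong windows on both sides. The strongest distal window of the hormone group lay 13.4 kb past its TSS, downstream of the gene (chr16:23159645-23160145), at 21.8, 17.2 and 18.8 in WT and 18.7, 19.5 and 17.3 in DKO. A window 9.78 kb upstream (chr16:23136505-23137005), chosen after its values were seen, read 20.2, 16.9 and 23.4 in WT and 18.7, 14.8 and 17.0 in DKO. The groups overlapped at both sites, and the log2 changes were 0.08 ± 0.12 and -0.13 ± 0.11 (SE). Both exceeded the median of the member promoters listed in all 6 libraries. Around Cfd a window 7.06 kb upstream (chr10:79883543-79884043) and another 2.02 kb past the TSS (chr10:79892627-79893127) were listed in all 6 libraries, from 9.08 to 15.8 and from 7.78 to 13.8. Downstream of Lep a window 22.8 kb past the TSS (chr6:29082739-29083239) ran from 6.99 to 12.2. These 3 were also chosen after their values were seen, and in none did the groups separate.

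**Figure D3:**
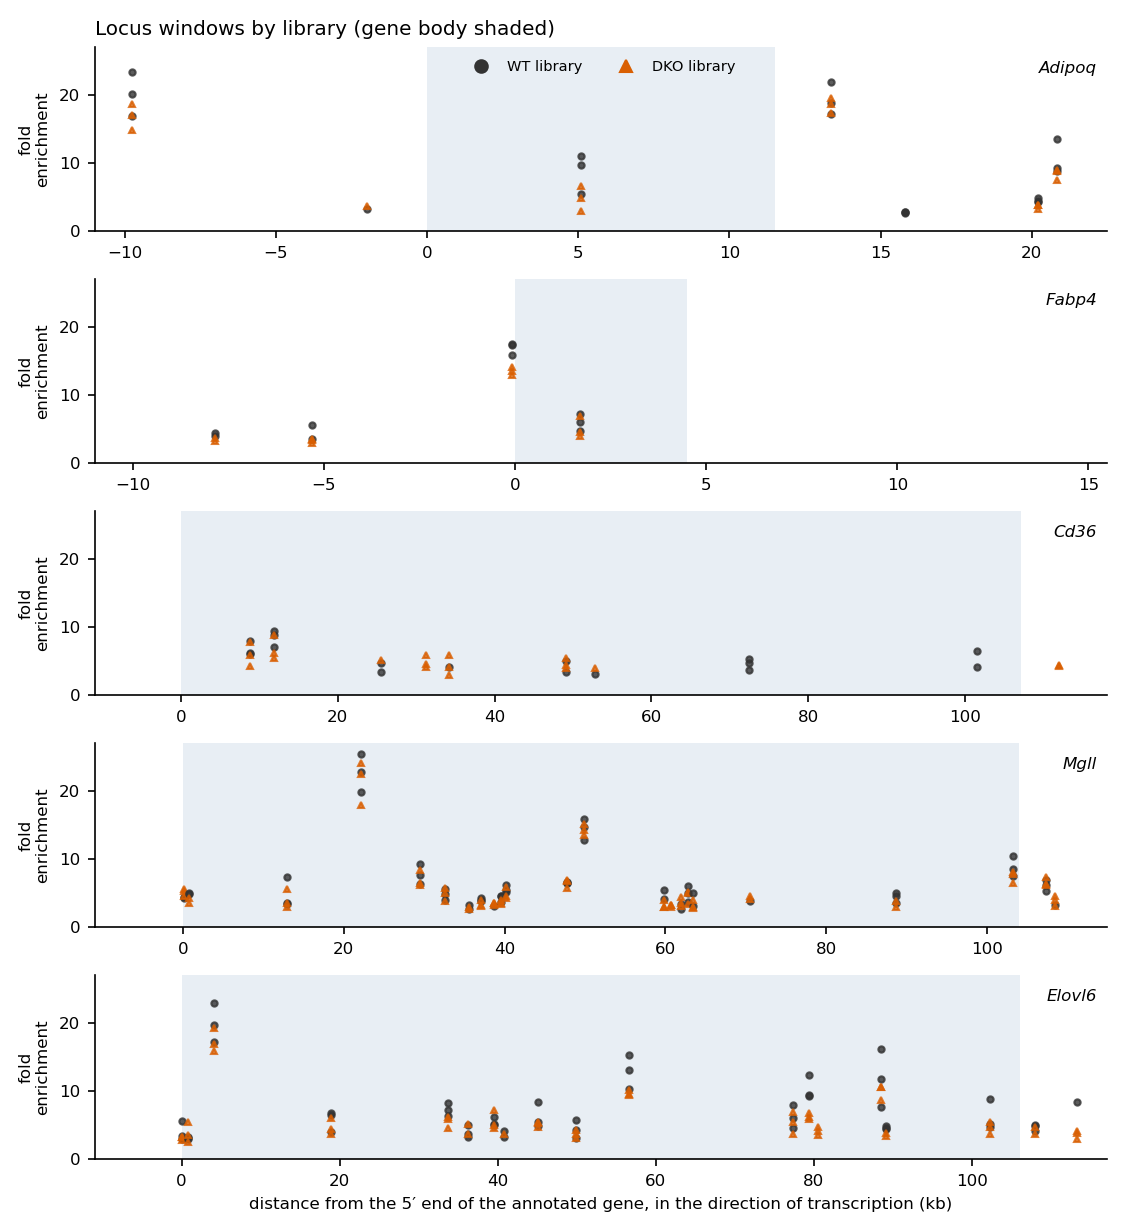
Fold enrichment (vertical axis, as listed) of every locus window of Adipoq, Fabp4, Cd36, Mgll and Elovl6 against the distance from the 5′ end of the annotated gene (kb, in the direction of transcription), with the gene body shaded, a circle for each WT and a triangle for each DKO library that listed the window. Adipoq has strong windows on both sides and none at its start, Fabp4 has 1 strong window at its start, no window of Cd36 reads above 9.44, and the strongest windows of Mgll and Elovl6 lie in introns.

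Of the droplet genes, Plin1 (perilipin 1, which coats the droplet of mature adipocytes) and Cidec (which fuses droplets) had no promoter window. Plin2, a perilipin of many cell types, was listed 613 bp past its TSS (chr4:86669197-86669697) at 6.41, 5.42 and 8.25 in WT and 6.25, 5.96 and 6.43 in DKO. Plin4, another perilipin, read 10.04, 8.18 and 11.5 in WT and 8.19, 10.5 and 9.65 in DKO at 156 bp upstream (chr17:56109709-56110209). Bscl2, which encodes the seipin of droplet assembly, read 8.89, 9.996 and 9.84 in WT and 11.5, 11.03 and 9.57 in DKO (chr19:8837457-8837957). The groups overlapped at all 3. The status of Plin1 depended on the annotation. Against the comprehensive GENCODE set, 2 of its intragenic windows in all 6 libraries lay 52 and 521 bp from an annotated start, the stronger (chr7:79729094-79729594, chosen after its values were seen) at 5.17 to 6.98, and the count of open promoters became 29 of 37. The strongest distal window of the droplet group, also in Plin1 (chr7:79728186-79728686), lay 3.74 kb past the TSS and read 8.69, 8.93 and 10.2 in WT and 6.56, 8.26 and 6.42 in DKO. All DKO values fell under all WT values as listed but not after normalization, where the log2 change was -0.21 ± 0.15 (SE). Cidec had 3 distal windows in all 6 libraries, of which 2 are given, chosen after their values were seen. One (chr6:113438712-113439212) read 6.50, 6.58 and 6.16 in WT and 4.57, 3.86 and 4.67 in DKO, lower in every DKO library as listed and overlapping once normalized. The other (chr6:113427215-113427715) read 6.42, 5.12 and 7.34 in WT and 7.27, 7.99 and 6.88 in DKO, overlapping as listed and higher in every DKO library once normalized.

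Among the uptake genes, Fabp4, the fatty acid carrier that is among the most abundant proteins of the fat cell, had the strongest promoter. It read 17.4, 15.9 and 17.4 in WT and 13.6, 14.2 and 12.9 in DKO, lower in every DKO library as listed. The normalized groups overlapped, with a log2 change of -0.17 ± 0.11 (SE). Fabp5, its close relative, read 13.2, 11.2 and 15.3 in WT and 11.9, 13.1 and 10.9 in DKO (chr3:10012290-10012790), without separation. Lpl, the lipase that frees fatty acids from lipoproteins, had a weak promoter that was the only one of the 28 promoters listed in all 6 libraries that was higher in all 3 DKO libraries as listed. It read 4.34, 4.04 and 5.02 in WT and 5.63, 5.53 and 5.17 in DKO (chr8:68880372-68880872, 131 bp past the TSS in the 5′ UTR). The groups also separated after normalization, where the log2 change was 0.46 ± 0.21 (SE) with an adjusted p of 0.432 in limma. The summits held 21 to 33 stacked cut sites in WT and 22 to 31 in DKO. Such counts are not scaled for read depth, which is not given, so they do not compare the genotypes.

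The other carriers were open with overlapping groups. Slc2a4, the insulin-regulated glucose transporter GLUT4, read 15.02, 14.3 and 15.2 in WT and 14.6, 14.5 and 11.6 in DKO at 850 bp upstream (chr11:69948764-69949264). Acsl1, which activates fatty acids to acyl-CoA, read 12.5, 11.2 and 14.1 in WT and 8.32, 12.8 and 9.93 in DKO (chr8:46470594-46471094). Aqp7, the channel through which glycerol leaves the cell, read 7.92, 10.2 and 11.3 in WT and 9.50, 9.84 and 10.4 in DKO, at 949 bp upstream (chr4:41048838-41049338). The scavenger receptor Cd36, which takes up long-chain fatty acids, was the least open of the group. Its promoter window (chr5:17835755-17836255) was listed only in WT replicate 2 at 3.13 and DKO replicate 2 at 3.97. Of its 9 distal windows 2 were listed in all 6 libraries. The strongest distal window of the uptake group lay 13.8 kb past the Slc2a4 TSS and 1420 bp from the start of Ybx2 (chr11:69934126-69934626), at 14.1, 12.6 and 17.8 in WT and 15.1, 13.6 and 12.01 in DKO.

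All the lipases but Mgll had a promoter window in all 6 libraries. Triglyceride is cut by ATGL (Pnpla2), the diglyceride by hormone-sensitive lipase (Lipe) and the monoglyceride by Mgll. Lipe had the strongest promoter of the 37 genes at 24.4, 17.7 and 21.5 in WT and 20.8, 21.2 and 20.3 in DKO (chr7:25395447-25395947, 682 bp past the TSS). Pnpla3, a relative of ATGL, read 21.3, 17.2 and 23.0 in WT and 20.2, 19.8 and 16.1 in DKO (chr15:84167466-84167966). Pnpla2 read 10.8, 12.9 and 15.9 in WT and 13.4, 12.6 and 13.1 in DKO (chr7:141454918-141455418). None of these separated the genotypes. At the Mgll TSS (chr6:88724258-88724758) WT replicate 1 listed no summit, the other WT libraries read 4.45 and 4.28, and DKO read 5.31, 5.57 and 4.59, each above both listed WT values. The highest distal window of all 37 loci lay in an Mgll intron (chr6:88746248-88746748), at 22.8, 19.8 and 25.4 in WT and 24.1, 22.4 and 17.9 in DKO. It rested on 120 to 195 stacked cut sites in WT and 110 to 165 in DKO. In Mgll, therefore, the main open site lay 21.7 kb from the TSS and read several times the promoter in each library that listed both, with a log2 change of 0.03 ± 0.10 (SE) between genotypes.

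All 7 genes of fatty acid synthesis had a promoter window in every library, with a wide range of strength. ATP citrate lyase (Acly), which makes cytosolic acetyl-CoA, read 14.96, 12.9 and 14.998 in WT and 14.4, 14.4 and 12.9 in DKO (chr11:100527717-100528217). Fatty acid synthase (Fasn) read 11.8, 9.96 and 14.8 in WT and 12.6, 12.7 and 12.3 in DKO (chr11:120824384-120824884). The desaturases, which introduce the double bond, were alike in strength. Scd1 read 14.8, 13.6 and 19.7 in WT and 16.6, 14.9 and 14.2 in DKO (chr19:44408146-44408646), and Scd2 read 14.0, 11.8 and 14.6 in WT and 14.3, 11.4 and 13.3 in DKO (chr19:44293718-44294218). Me1, the malic enzyme that supplies NADPH, was weaker at 5.77, 3.13 and 7.72 in WT and 4.19, 7.05 and 4.86 in DKO (chr9:86695732-86696232). Elovl6, the elongase of palmitate, was weakest at 2.996, 3.41 and 5.51 in WT and 3.22, 3.19 and 2.80 in DKO (chr3:129532193-129532693). In these 6 genes the groups overlapped as listed, while after normalization Acly and Fasn lay higher in every DKO library.

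Acaca, which encodes the acetyl-CoA carboxylase of the committed step, had its strongest window near a basic-set TSS inside the gene, 486 bp upstream of an internal start (chr11:84194702-84195202). It read 8.46, 6.46 and 9.52 in WT and 5.98, 5.06 and 5.07 in DKO. Every DKO value was below every WT value both as listed and after normalization. The log2 change was -0.40 ± 0.17 (SE) with an unadjusted p of 0.0402 and an adjusted p of 0.396 in limma. The summits held 28 to 51 stacked cut sites in WT and 16 to 24 in DKO. The 3 windows at the 5′ end of the annotated gene lie at the start of the neighbour Tada2a and were counted apart. They also lie 912, 309 and 205 bp from an Acaca start of the comprehensive set. Their values, given after they were seen, overlapped between genotypes. That at chr11:84128510-84129010 read 6.66 to 8.58 in WT and 4.399 to 8.33 in DKO, that at chr11:84129113-84129613 read 5.13 to 10.3 and 6.80 to 8.002, and that at chr11:84129655-84130155 read 5.28 to 9.12 and 4.28 to 6.47. Their log2 changes were -0.02 ± 0.22, 0.37 ± 0.21 and -0.30 ± 0.22 (SE). The strongest distal window of the group was also in an Acaca intron (chr11:84168762-84169262), at 23.2, 19.1 and 23.3 in WT and 17.6, 20.1 and 14.7 in DKO, with overlapping groups and a log2 change of -0.21 ± 0.11 (SE). In Elovl6, whose promoter was weak, an intronic window 4.02 kb past the TSS (chr3:129536152-129536652) read from 15.8 to 22.9 over the 6 libraries, a window chosen after its values were seen.

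For triglyceride synthesis, the enzymes that supply glycerol 3-phosphate had no promoter window and the enzymes that add the acyl chains did. Gpd1, glycerol 3-phosphate dehydrogenase, and Pck1, the PEPCK of glyceroneogenesis, were the genes without. Dgat1 and Dgat2 catalyse the last acylation. Dgat1 read 13.6, 13.9 and 16.6 in WT and 15.6, 16.3 and 15.1 in DKO (chr15:76511712-76512212). Dgat2 read 14.0, 12.9 and 16.1 in WT and 12.3, 13.9 and 11.8 in DKO (chr7:99182819-99183319). Lpin1, the phosphatidate phosphatase lipin 1, read 7.60, 7.49 and 6.58 in WT and 7.51, 7.72 and 7.67 in DKO at 941 bp past a TSS (chr12:16588575-16589075). All 3 had overlapping groups as listed, although the normalized Dgat1 values did not overlap and were higher in DKO. Agpat2, which adds the acyl chain to lysophosphatidate, read 5.57, 5.08 and 6.38 in WT and 6.49, 5.59 and 6.31 in DKO (chr2:26603608-26604108) and was likewise higher in every DKO library only after normalization. Gpam, the mitochondrial acyltransferase of the first step, was the weakest of the 28 at 3.69, 3.48 and 3.58 in WT and 2.34, 4.14 and 3.44 in DKO (chr19:55098477-55098977). An intronic window of Gpam 520 bp from a start in the comprehensive set (chr19:55103361-55103861) was chosen after its values were seen and read 11.3 to 15.9. The strongest distal window of the group lay 2.40 kb upstream of Gpd1 (chr15:99714869-99715369), at 15.8, 11.3 and 20.4 in WT and 13.8, 18.1 and 12.3 in DKO. Pck1 had 1 window listed in all 6 libraries, 6.38 kb past its TSS (chr2:173159182-173159682) and named after its values were seen, from 6.55 to 9.51.

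Both transcription factors of lipogenesis were open. Srebf1, the sterol and insulin responsive factor SREBP1, read 9.16, 6.76 and 10.99 in WT and 7.71, 8.53 and 7.90 in DKO at 738 bp past its TSS (chr11:60219616-60220116). Mlxipl, the glucose-responsive factor ChREBP, read 5.79, 8.23 and 7.46 in WT and 8.64, 4.29 and 7.03 in DKO (chr5:135106610-135107110). The groups overlapped in both. The strongest distal window of the pair lay at the 3′ end of Srebf1 (chr11:60199530-60200030) and ran from 8.43 to 11.8. An intronic window 97 bp from a further Srebf1 start of the comprehensive set (chr11:60210312-60210812) was also chosen after its values were seen and read 7.76 to 12.6, about the level of the listed promoter.

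Across all loci, distal windows outnumbered promoter windows. Of the 342 windows 63 were promoter, 249 distal and 30 at the promoter of another protein-coding gene. Of the distal windows 147 were listed in all 6 libraries, or 59.0%, and of the promoter windows 47, or 74.6%, while 58.0% of all windows of the series were. The median of the mean fold enrichment among those in all 6 libraries was 6.38 for distal and 7.10 for promoter windows, beside 7.20 over the series. Introns held 135 of the distal windows and 96 lay outside the gene. Of the 249, 13 lay within 1 kb of a start of the same gene in the comprehensive set.

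No locus window was lower or higher in DKO past an adjusted p of 0.05 in limma, 0 of 342 in either direction. Over the whole series 0.0385% of windows were called lower and 0.0234% higher, a share at which a set of 342 windows holds fewer than 1. An unadjusted p under 0.05 was reached by 33 of the 342 windows, or 9.65%, against 11.8% of all windows. Of these, 10 (2.92%) were lower and 23 (6.73%) higher in DKO, against 6.1% and 5.69% of all windows. Among the 217 locus windows listed in all 6 libraries, the size of the log2 change had a median of 0.15 and reached at most 0.83. Without the trend in limma's variance prior, 2 locus windows were called lower and 5 higher, all of them windows with no summit in any library of 1 genotype, while the series as a whole then gave 2089 and 2048 calls.

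Separation without a test gave a similar picture. All normalized DKO values lay below all WT values in 21 windows, or 6.14%, against 7.67% of the series, and above them in 37, or 10.8%, against 8.76%. The median log2 change was 0.05 over the locus windows and 0.01 over the series. The direction of this split depended on the scaling. Without scaling, which moved the median of all windows to -0.14, 39 locus windows lay below and 15 above, and the series gave 24296 below and 5969 above. Over the series, 16.4% of windows did not overlap in either direction. By role these numbered 7 of 31 for hormones (22.6%), 5 of 37 for the droplet (13.5%), 9 of 50 for uptake (18.0%) and 8 of 48 for lipolysis (16.7%). There were 15 of 104 for fatty acid synthesis (14.4%), 11 of 56 for triglyceride synthesis (19.6%) and 3 of 16 for the transcription factors (18.8%). The median log2 change ran from -0.01 in fatty acid synthesis to 0.12 in lipolysis, and no p was computed for a list.

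**Figure D4:**
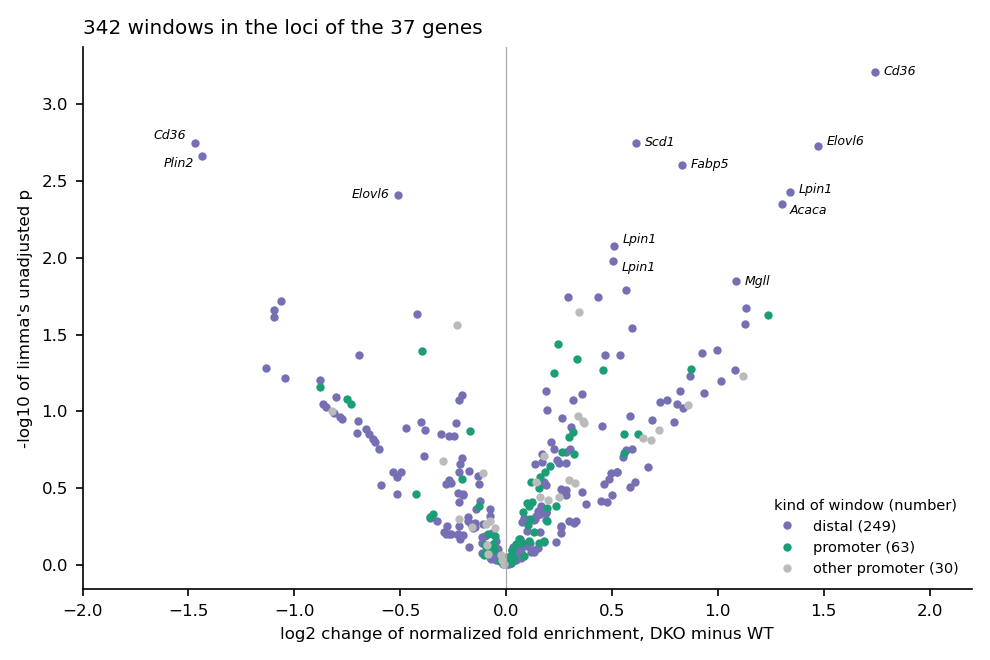
Log2 change of normalized fold enrichment, DKO minus WT (horizontal axis), against −log10 of limma's unadjusted p (vertical axis) for the 342 windows in the 37 loci, coloured by kind of window. The 12 windows with the smallest p are named, all of them distal, and none passed an adjusted p of 0.05. The position of 7 of these, listed in 1 genotype alone, is largely set by the value given to unlisted libraries.

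The promoters were also compared by rank. Within each list every summit was ranked by its −log10 p, and the rank is given as the share of the list at or above it. The median promoter of the 28 genes stood in the best 8.41% to 11.4% of its list, depending on the library. Dgat1 and Acly led with medians over the libraries of 0.715% and 0.872%, ahead of Lipe at 1.18% and Pnpla3 at 2.55%. Rank and fold enrichment thus gave a different order at the top, where Lipe led by fold enrichment. The rank of Lpl did not overlap between genotypes and went from 54.2%, 54.0% and 51.5% in WT to 36.0%, 37.8% and 37.3% in DKO. Agpat2 likewise stood at 41.7%, 39.1% and 42.6% in WT and 26.3%, 36.0% and 25.2% in DKO. Fasn and Bscl2 were also better placed in every DKO library. Acaca went the other way, from 24.8%, 30.9% and 25.0% in WT to 40.2%, 54.2% and 44.5% in DKO, and Fabp4 did so by a small margin. That made 4 of 28 promoters better and 2 worse placed in all DKO libraries, where 11.4% and 8.39% of all promoters listed in 6 libraries were. By normalized fold enrichment 1 of the 28 lay below and 5 above, against 4.51% and 13.9% of those promoters, and as listed 3 lay below and 1 above, against 10.4% and 3.38%.

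Of the 12 locus windows with the smallest p, 7 were listed in 1 genotype alone. In these, the value of an unlisted library was set to the lowest fold enrichment of its list and the window passed the filter through 1 genotype. The log2 change, its SE and its p are then largely set by the filter and that value, and only the listed values are given. In the Cd36 locus such windows were found in both directions. An intronic window (chr5:17857254-17857754) was listed in DKO alone at 4.19, 4.53 and 5.90. Another (chr5:17816050-17816550) was listed in WT alone at 4.67, 3.70 and 5.28. Elovl6 had an intronic window in DKO alone at 4.11, 4.64 and 3.47 (chr3:129612641-129613141). A window in an intron of Plin2 was seen in WT alone at 4.67, 3.70 and 4.94 (chr4:86654520-86655020). These summits were shallow, at 12 to 19 stacked cut sites, close to the 8 to 12 of the weakest listed summits.

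The other windows of DKO alone rested on 9 to 24 stacked cut sites. In the 3′ UTR of Lpin1 (chr12:16536696-16537196) DKO read 4.17, 3.57 and 3.41. In Acaca an intronic window (chr11:84270734-84271234) read 3.91, 3.68 and 3.28. An intron of Mgll (chr6:88784817-88785317) gave 3.29, 2.91 and 3.22. All 3 DKO libraries and no WT library listed a window in 5 of the 342, or 1.46% against 1.14% of the series. The reverse held in 3, or 0.877% against 1.23%. The share of such windows was thus close to that of the series.

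The 5 windows listed in all 6 libraries rest on measured values throughout. Downstream of Fabp5 (chr3:10022485-10022985, 10.2 kb past the TSS) the values were 4.30, 4.18 and 4.11 in WT and 7.12, 6.32 and 6.51 in DKO. The log2 change of 0.83 ± 0.21 (SE) was the largest of any locus window in all 6 libraries, with an adjusted p of 0.161, and the summits held 13 to 14 stacked cut sites in WT and 20 to 28 in DKO. Downstream of Scd1 (chr19:44388373-44388873, 19.1 kb past the TSS) the values were 6.56, 5.73 and 7.49 in WT and 9.93, 8.43 and 8.32 in DKO, with 0.61 ± 0.15 and 0.157. The adjoining window (chr19:44388953-44389453), named after its values were seen, was higher in every DKO library as well, at 4.26 to 5.09 in WT and 5.64 to 5.93 in DKO. In an Elovl6 intron (chr3:129611484-129611984) the values were 9.34, 9.28 and 12.4 in WT and 6.22, 6.74 and 5.91 in DKO, with -0.51 ± 0.14 and 0.173. This window lay 79.3 kb past the TSS, near the Elovl6 window listed in DKO alone. The last 2 belong to Lpin1. One beyond its 3′ end (chr12:16526070-16526570) read 6.46, 6.01 and 7.87 in WT and 7.56, 10.3 and 7.71 in DKO, which overlap as listed, with 0.51 ± 0.16 and 0.213. The other, 1.86 kb upstream of a TSS (chr12:16591384-16591884), read 6.90, 5.38 and 7.85 in WT and 9.43, 7.39 and 7.96 in DKO, with 0.50 ± 0.16 and 0.234, again overlapping as listed and not after normalization.

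**Figure D5:**
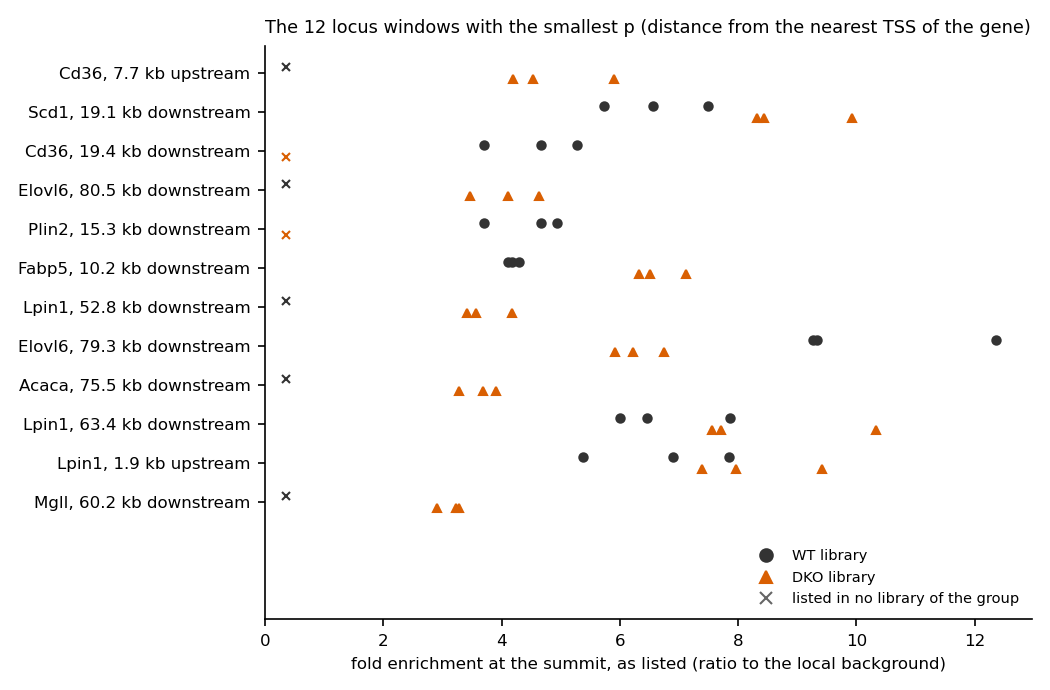
Fold enrichment as listed (horizontal axis) in each library for the 12 locus windows with the smallest p, ordered by p from the top and labelled with the gene and the distance from its nearest TSS. Circles are WT and triangles DKO libraries, a cross marks a genotype in which no library listed the window, and the Fabp5 window shows 4.11 to 4.30 in WT against 6.32 to 7.12 in DKO.

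The letters of the open windows were compared with those of the series as a description. An AP-1 match was found in 34 of the 147 distal windows in all 6 libraries, or 23.1%, against 34.6% of the 85275 distal windows of the series listed in 6. In promoter windows the difference ran the other way, with AP-1 in 6 of 47, or 12.8%, against 9.16% of the 18713 promoter windows of the series. The PPAR repeat was found in 11 distal windows, or 7.48% against 7.19%, and in 5 promoter windows, or 10.6% against 4.96%. A C/EBP match was found in 5 distal windows, or 3.40% against 3.22%, and in 0 promoter windows against 2.004%. A GC box was held by 22 promoter windows, or 46.8% against 62.5%, and by 25 distal windows, or 17.0% against 11.01%. A CCAAT box was held by 28 promoter windows, or 59.6% against 46.5%, and by 82 distal windows, or 55.8% against 49.8%. For the E box these were 4, or 8.51% against 12.5%, and 13, or 8.84% against 7.11%. Among the sequences printed above, those of Fabp5, Elovl6 and the Cd36 window of the WT lists held no match.

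The same rules were applied to 50 other genes of lipid storage and use. A promoter window in all 6 libraries was found for 40 of them, and 4, Fabp9, Acacb, Fitm1 and Scd3, had none. Of their 433 locus windows 0 passed an adjusted p of 0.05 in limma in either direction, while 15 (3.46%) reached an unadjusted p under 0.05 lower and 32 (7.39%) higher in DKO, against 6.1% and 5.69% of the series. All DKO values lay below all WT values in 23 (5.31%) and above in 41 (9.47%), against 7.67% and 8.76% of the series. The smallest p belonged to a window of Gpat3, an acyltransferase of the endoplasmic reticulum (chr5:100861767-100862267), which read 5.65, 4.08 and 6.93 in WT and 9.71, 10.7 and 10.6 in DKO, with a log2 change of 1.11 ± 0.16 (SE) and an adjusted p of 0.0513. It was named after its values were seen.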

How the data were processed

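ATAC-seq was carried out on 6 libraries, and the deposited files hold 1 peak list per library with no replicates pooled. Per the labels and the study's methods, the authors used bcl2fastq (version 2.17), cutadapt (version 1.18), Bowtie2 (version 2.3.4.3) against mm10, and MACS2 (version not given in the sources used here). The names of the deposited lists give removal of duplicates and mitochondrial reads, the Tn5 shift, calls at a p of 0.01, the best 300000 peaks and a blacklist filter, while the study states default settings. The lists deposited by the authors hold a fold enrichment (a ratio to the local background) and −log10 p and −log10 q values, all on the authors' scale. Read depth is not given in the sources used here. A fold enrichment divides by a background from the same library, and a −log10 p grows with depth, so the latter was compared only as a rank within a list. Stacked cut sites at a summit were solved from its fold enrichment and −log10 p and came out whole within 0.001 of the listed −log10 p for 100% of 1744 locus summits. They are not scaled for depth and show only how shallow a summit is.

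Summits were joined into windows of 501 bp, best rank first and without regard to genotype. A window with q under 0.01 in at least 2 libraries was tested, taking the highest fold enrichment in it, or the lowest of the list where it was unlisted. Log2 values were quantile-normalized and fitted in limma (version 3.58.1, R version 4.3.3) with a trend, WT against DKO, 3 libraries each, with Benjamini-Hochberg adjustment over 179251 windows, two-sided, at 0.05. An exact permutation test of 3 against 3 cannot go below 0.10, so single values were given without one. Genes and starts came from GENCODE M21 on mm10, and the basic set gave the TSSs. A promoter window is centred within 1 kb of a TSS, and the one with the highest mean fold enrichment stands for its gene. Windows within 1 kb of another protein-coding gene's TSS were counted apart.

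The windows named were, by rule, the promoter window of each gene, the 12 locus windows with the smallest p and the strongest distal window of each role. Others are marked as chosen after their values were seen. The members and lists were chosen with earlier results of these data known. The promoter sequence of 1 other gene is not reported here. The fit was tested on simulated data, where it missed changes larger than any measured in the locus windows listed in all 6 libraries. A window that was not called is therefore not known to be unchanged. Alternatives covered scaling, variance model, filters, measure, locus, TSS distance, list length, the replicate block and each library left out.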

Additional observations from a re-analysis of the deposited data

How the results depend on the processing

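Of 249 values of 19 results under the alternatives, 223 kept their direction and their side of the threshold, or stayed within 1.5 times the count. The 249 include 161 values of the 12 named windows, 7 of which were listed in 1 genotype alone, so this count is no measure of stability. The 5 named windows listed in all 6 libraries kept their direction in 70 of 70 values, at adjusted p from 0.0604 to 0.538. The direction and p of the 7 named windows listed in 1 genotype are largely set by the filter and the value given to unlisted libraries, and these 7 are the 2 lower and 5 higher locus windows that limma without the variance trend called. The other settings called 0 locus windows in either direction. With the replicate block, 0 were called lower and 0 higher, and 25 of 342 (7.31%) reached an unadjusted p under 0.05, against 10.2% of all windows. With the mean of each genotype subtracted, the normalized values of same-numbered libraries correlated at 0.01, -0.01 and -0.01, so no pairing was seen in them. The labels do not say whether same-numbered cultures were prepared together. Windows with all DKO values below all WT values numbered 39 without scaling (11.4% against 13.6% of all windows) and 10 among windows listed in all 6 libraries (4.61% against 8.22%), and those above numbered 15 (4.39% against 3.33%) and 22 (10.1% against 9.43%). With 1 library left out, which makes separation easier by construction, they ran from 30 to 38 below (WT replicate 1 gave 38, WT replicate 2 gave 38, WT replicate 3 gave 35, DKO replicate 1 gave 33 and DKO replicate 2 gave 34) and from 44 to 63 above (WT replicate 2 gave 63, DKO replicate 1 gave 59, DKO replicate 2 gave 59 and DKO replicate 3 gave 61). These are 9.01% to 11.7% below and 13.5% to 18.9% above, against 11.7% to 14.4% and 12.6% to 15.2% of all windows. The 28 open promoters became 21 in the best 100000 summits and 16 in the best 50000, and the 147 distal windows became 51 and 20, and 88 within the gene body alone, all of them fewer by construction. Ranking promoters by fold enrichment moved their median from 9.58% to 10.4% of a list. Unlisted sites can lie under a limit that differs between lists, or inside a called interval whose summits fall elsewhere. Absence from a list is therefore no measure of closure. The comprehensive set of starts, the stacked cut sites as depth and the other-gene promoters counted with the distal windows were chosen after seeing the data.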
